A study of Mus musculus with 2 samples.

Results

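The T cell receptor gene segments are the V, D, J and C pieces from which T cells build the genes of their antigen receptors. They were taken here as all genes of the GENCODE M21 annotation of mm10 (GRCm38) whose type begins with TR_, pseudogenes included, which gave 270 of 55413 annotated genes on the main chromosomes. The alpha-delta locus held 202 of them (136 V, 2 D, 62 J and 2 C) within chr14:52427928-54224206. At the beta locus there were 53 (35 V, 2 D, 14 J and 2 C) within chr6:40891229-41558452, and at the gamma locus 15 (7 V, 4 J and 4 C) within chr13:19178024-19352756. No segment lay elsewhere, and 44 were annotated as pseudogenes.

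ATAC-seq uses a transposase to cut and tag accessible DNA, and here it was done on T helper 2 (Th2) cells of the mouse. These CD4 T cells make type 2 cytokines and carry an alpha-beta receptor. The data were 1 list of open regions for each of 2 biological replicates of primary Th2 cells of the strain C57BL/6NJ, with no control, treatment or second cell type. The labels give separate biosamples under 1 donor record, do not state sex or age, and do not name separate animals, so differences between replicates may be technical.

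Each developing T cell joins a V to a J segment, at the beta and delta loci with a D segment between them, and the joined exon is spliced to a C exon. RAG proteins cut at recombination signals beside the segments, and the DNA between alpha segments that are joined is removed from the chromosome. V segments carry their own promoters, and at the alpha and beta loci known enhancers lie 3′ of the C genes. Alpha-beta T cells such as Th2 cells need no product of the delta or gamma loci.

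An open region was the authors' own called peak, and a shared region was one open in both replicates, joined where the replicates overlapped by at least 1 bp. Fold enrichment was the authors' value at the summit relative to local background, and the highest value within a shared region was used. The summit of a shared region was the mean position of the summits of the 2 replicates. Pairs of values are for replicate 1 and then replicate 2. In all, 46 shared regions lay in the 3 loci with 20 kb on each side, of 44058 on the main chromosomes. The label was checked against markers. The Th2 genes Gata3 and Il4 had a shared region within 1 kb of their annotated start, as did Cd3e, Cd4 and Trbc2 of the 5 alpha-beta T cell markers. The other 2, Trac and Trbc1, had none within 1 kb of their start, with the nearest at 1720 and 2959 bp. Folds were 2.75 and 3.88 at Cd4 and 2.71 and 2.51 at Trbc2. Trac, Trbc1 and Trbc2 are themselves among the segments described here. Of the 5 gamma-delta T cell markers, Sox13 and Zbtb16 had a shared region within 1 kb of their start. The B cell markers Cd79a and Ms4a1 had none.

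The sequences that follow are 300 bp windows at the summits of 5 of these regions, printed on the plus strand of GRCm38.p6 as given by RefSeq. They were chosen because they hold the V region with the highest pileup, the region 5′ of the first beta D segment, the region inside Trac and the regions at the known sites of the alpha and beta enhancers. Capitals mark every match to the motifs described further on, on either strand.

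Trbv1 region, chr6:40890932-40891231 (+): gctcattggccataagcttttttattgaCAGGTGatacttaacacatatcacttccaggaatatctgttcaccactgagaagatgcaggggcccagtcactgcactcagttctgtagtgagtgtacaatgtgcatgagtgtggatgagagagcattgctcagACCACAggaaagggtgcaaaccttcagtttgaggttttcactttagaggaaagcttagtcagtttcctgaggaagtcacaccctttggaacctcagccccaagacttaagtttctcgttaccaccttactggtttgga

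Trbd1 region, chr6:41532644-41532943 (+): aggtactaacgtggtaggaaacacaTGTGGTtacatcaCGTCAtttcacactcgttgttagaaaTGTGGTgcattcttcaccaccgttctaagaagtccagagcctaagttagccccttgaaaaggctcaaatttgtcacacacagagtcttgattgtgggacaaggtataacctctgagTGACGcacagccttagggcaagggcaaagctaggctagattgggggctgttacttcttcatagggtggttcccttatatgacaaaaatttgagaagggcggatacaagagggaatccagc

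Trac intron region, chr14:54222425-54222724 (+): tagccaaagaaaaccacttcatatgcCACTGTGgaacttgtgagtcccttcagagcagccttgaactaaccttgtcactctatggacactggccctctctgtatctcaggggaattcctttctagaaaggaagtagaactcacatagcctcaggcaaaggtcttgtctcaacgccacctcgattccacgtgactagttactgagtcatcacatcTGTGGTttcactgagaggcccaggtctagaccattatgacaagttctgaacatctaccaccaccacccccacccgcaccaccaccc

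Alpha enhancer site 3′ of Trac, chr14:54227477-54227776 (+): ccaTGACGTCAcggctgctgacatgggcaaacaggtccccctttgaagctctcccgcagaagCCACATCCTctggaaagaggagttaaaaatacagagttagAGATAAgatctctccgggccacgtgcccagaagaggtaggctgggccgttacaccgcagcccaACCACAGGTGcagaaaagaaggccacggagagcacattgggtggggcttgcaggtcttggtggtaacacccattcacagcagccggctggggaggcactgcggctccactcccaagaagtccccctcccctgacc

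Beta enhancer site 3′ of Trbc2, chr6:41554391-41554690 (+): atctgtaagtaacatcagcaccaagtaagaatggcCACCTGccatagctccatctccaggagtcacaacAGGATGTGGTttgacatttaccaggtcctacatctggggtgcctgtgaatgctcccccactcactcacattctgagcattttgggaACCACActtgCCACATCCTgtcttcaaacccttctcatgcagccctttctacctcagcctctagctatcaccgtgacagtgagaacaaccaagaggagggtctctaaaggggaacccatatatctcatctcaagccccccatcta

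The recombination signals are a heptamer next to the coding end and a nonamer, separated by a spacer of 12 or 23 bases. In the examples below, capitals mark the bases at the positions of heptamer and nonamer. They were taken by position, without a check of the letters. At Trav2 the bases at the nonamer position differ from those at Trbv1 in most letters.

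Trav2, 23-base spacer, chr14:52568052-52568090 (+): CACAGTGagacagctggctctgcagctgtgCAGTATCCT

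Trbv1, 23-base spacer, chr6:40891886-40891924 (+): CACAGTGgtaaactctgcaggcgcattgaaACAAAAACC

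Traj26, 12-base spacer, chr14:54194462-54194489 (+): AGTTTTTGCtaagaggaaaccCACTGTG

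Trbj1-1, 12-base spacer, chr6:41533836-41533863 (+): ATTTTTCTCctcatcctatggCACTGTG

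Trbd1 5′ side, 12-base spacer, chr6:41533173-41533200 (+): CTTTTTTGTataaagctgtaaCATTGTG

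Trbd1 3′ side, 23-base spacer, chr6:41533213-41533251 (+): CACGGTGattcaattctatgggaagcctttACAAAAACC

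The Trbd1 segment itself is the 12 bases between its signals, gggacagggggc. Of the V segments, 104 of 136 at the alpha-delta locus, 8 of 35 at the beta locus and 1 of 7 at the gamma locus had exactly CACAGTG next to the coding end. The first 3 bases CAC were there in 129, 31 and 7 of them. Among J segments the exact heptamer stood at 15 of 62, 1 of 14 and 3 of 4, and CAC at 50, 14 and 4, for the alpha-delta, beta and gamma loci.

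A shared region overlapped or lay within 1 kb of 46 of the 270 segments, or 17.0%, against 36% of all other annotated genes, 7.95% of other genes up to 1 kb long and 1.85% of 432 immunoglobulin segments. The share was 66% for protein-coding genes and 2.27% for olfactory receptor genes, another large family of short genes. The 270 segments thus stood below all genes and above short genes, but not alike in each class. V segments alone, at 15 of 178 (8.43%), were near the 7.95% of short genes, and J segments, at 27 of 80 (33.8%), were above it. A single region could count for several neighbouring J segments, as for 4 at the Traj20 region. These 46 segments and the 46 shared regions are separate counts, since 31 of the regions lay within 1 kb of a segment. Taken alone, replicate 1 gave 49 segments with a region and replicate 2 gave 50. A shared region overlapped 20 of the segments themselves, or 7.41%, against 33.6% of all other genes and 4.56% of other genes up to 1 kb long. The 1 kb limit fell between Traj40 at 993 bp and Trbj2-3 at 1033 bp from the nearest shared region.

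By class, 15 of 178 V segments (8.43%), 2 of 4 D, 27 of 80 J (33.8%) and 2 of 8 C segments had a shared region. When only overlap counted, these were 14 V, 0 D, 4 J and 2 C segments, so the J share no longer stood above the V share. The loci differed in which class was open. At the alpha-delta locus these were 2 of 136 V, 0 of 2 D, 19 of 62 J and 1 of 2 C segments. The alpha-delta J count was 4 for overlap only, 11 with a −log10 q of at least 10 in both replicates and 32 within 2.5 kb. At the beta locus they were 12 of 35 V, 2 of 2 D, 8 of 14 J and 1 of 2 C segments. The beta J count was 0, 4 and 13 under the same changes, and the D count 0 for overlap only. At the gamma locus only the V segment Tcrg-V7 had a region, of 7 V, 4 J and 4 C segments. This gamma V count was 0 with 50% reciprocal overlap, and also with a −log10 q of at least 10 in both replicates. In the beta V segments, 10 of 22 functional ones and 2 of 13 pseudogenes had a region.

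**Figure D1:**
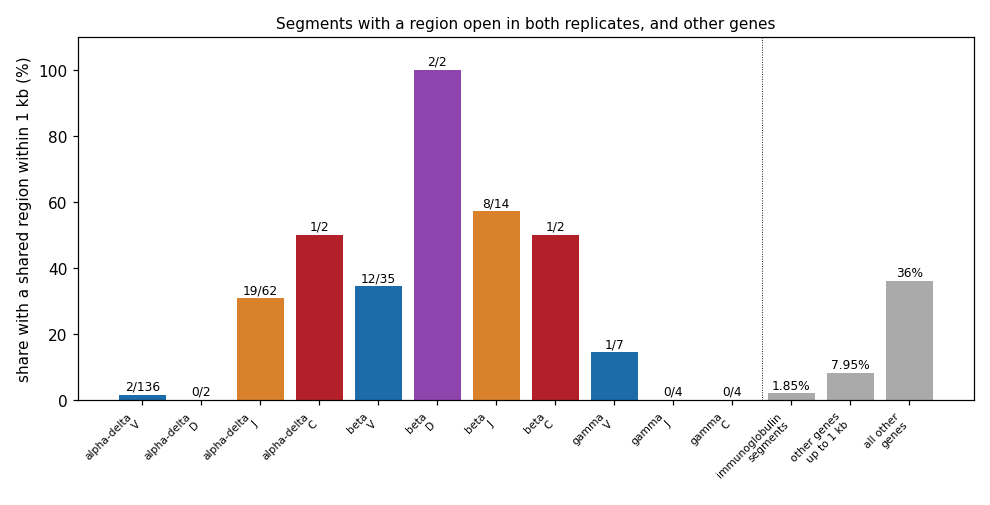
Share of segments, in percent, with a region open in both replicates that overlaps them or lies within 1 kb, by locus and class (coloured bars, with the number of segments above each), beside immunoglobulin segments, other annotated genes up to 1 kb long and all other annotated genes (grey bars). Alpha-delta V segments stand at 2 of 136 and beta V segments at 12 of 35.

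The loci also differed in how much of their sequence occurs once in the genome. The median share of 50-base stretches found once, over each V segment with 1 kb on each side, was 42.3% for alpha-delta, 99.2% for beta and 91.7% for gamma V segments. All 73 V segments with a share under 50% were alpha-delta segments, and 0 of them had a shared region. Among V segments with at least 90%, a region was present for 2 of 22 alpha-delta segments (9.09%), 10 of 33 beta segments (30.3%) and 1 of 4 gamma segments. Reads from repeated sequence may not be placed, and the part of this in the alpha-delta count was not tested.

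Over the V part of the alpha-delta locus as a whole, regions were few. The whole V part, 1648 kb long with 135 segments, held 7 shared regions or 0.425 per 100 kb, against 1.62 per 100 kb over the main chromosomes, and 49.6% of its sequence was unique. Trav2 had the higher fold of the 2 alpha V segments with a region. Its region at chr14:52566704-52567562 had folds of 14.2 and 12.6 and summit pileups of 90 and 80 counts, with the summit 84 bp 5′ of the segment. Trav6-1 had folds of 6.16 and 8.58 at chr14:52638318-52639265, with the summit 106 bp 3′ of the segment.

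The other 5 regions of the alpha V part were intergenic. A region 21.1 kb 5′ of Trav2 at chr14:52545367-52546054 had folds of 15.2 and 15.8. A pair of regions lay 3′ of Trav5-1, at chr14:52625156-52625962 with 9.56 and 13.9 and at chr14:52626447-52626805 with 3.96 and 4.52. The region nearest to Trav8d-2, at chr14:53039166-53040042 and 2.39 kb from it, had 16.6 and 13.8. Its replicate 1 value was the highest of the 46 regions and above 99.7% of the regions in that list, although 71.9% of its 50-base stretches were unique. The last, at chr14:53093463-53093721 and 1.59 kb from Trav7n-4, had 7.18 and 7.23. Fold medians over the 7 regions of the alpha V part were 9.56 and 12.6, against 6.19 and 7.08 over all shared regions.

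From this last region to the first J region, chr14:53093722-54168101 held no shared region over 1074 kb. It contains 104 segments, 87 of them V, 14 J, both delta D segments Trdd1 and Trdd2 and the delta constant gene Trdc. Of 44037 gaps between neighbouring shared regions on the main chromosomes, 400 (0.908%) were as long or longer. Replicate 1 had 1 region of its own there and replicate 2 had 1. Unique sequence made up 57.8% of the gap, and 31 of its segments had at least 90% of their window unique. The lists do not show how many copies of this DNA the cells kept, so copies removed by recombination and copies that were closed cannot be told apart.

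**Figure D2:**
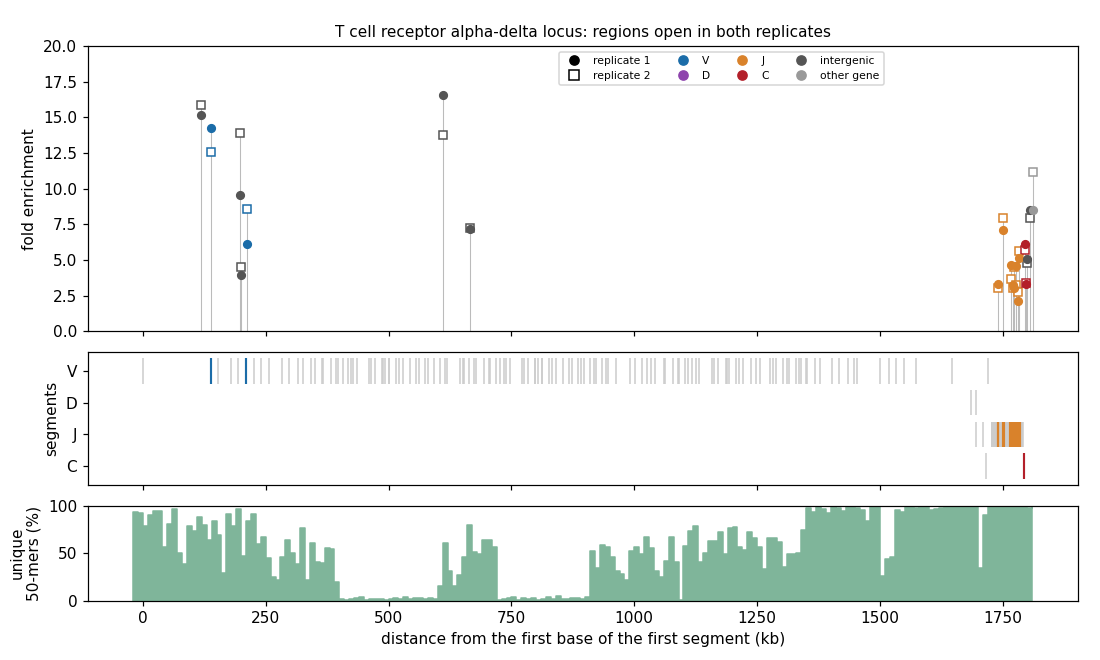
Top, fold enrichment of each shared region of the alpha-delta locus in replicate 1 (circles) and replicate 2 (squares), coloured by the class of the nearest segment within 1 kb, against the distance in kb from the first segment. Middle, the segments by class, coloured where they have a shared region; bottom, the percent of 50-base stretches that occur once, in bins. Regions sit at both ends, with the 1074 kb gap between them.

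The delta segments are embedded in the alpha locus and lay within this gap. Over the 35.8 kb from Trdd1 to Trdv5, which overlaps the 3′ end of Trdc, there were 0 shared regions, and the sequence was 78.3% unique. Trdc, which encodes the constant part of the delta chain, was 19.2 kb from the nearest shared region. Trdd1 and Trdd2 were 54.6 and 45.9 kb away, and the windows of both were 100% unique.

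The alpha J segments, 60 from Traj61 to Traj1 in 63.8 kb, carried 8 shared regions or 12.5 per 100 kb in sequence that was 99.2% unique. J segments with a shared region lay mostly toward Trac. None of the first 11 J segments had a shared region, and the first that did was Traj50. Of the first 30, up to Traj32, 4 had a shared region, at the Traj49 and Traj39 regions. Of the last 30, 15 had one, at regions from Traj26 to Traj7. All alpha J regions called in a single replicate lay among the first 30. They added Traj47, Traj46 and Traj38 in replicate 1. In replicate 2 they added Traj36, Traj35 and, from the first 11, Traj52 and Traj51. The difference between the first and last 30 was smaller in each replicate taken alone.

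Fold at the J regions was low beside the V regions. Traj39 had the highest of the 8, with 7.09 and 7.98 at chr14:54178975-54179513, and Traj7, the one nearest to Trac, had 5.13 and 5.62 at chr14:54211003-54212252. The Traj26 region at chr14:54193301-54194427 had 4.67 and 3.70. Traj15 had 4.59 and 3.28, and Traj20 had 3.03 and 4.55, so replicates differed in which was higher. Traj49 had 3.33 and 3.01, Traj22 had 3.23 and 3.01, and Traj11 had 2.11 and 2.73, the last within the lowest 5.67% of each replicate's list.

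The local background behind these folds was not level along the J segments. In replicate 1 the recovered background was 2.90 counts at Traj49, 5.49 at Traj39, 7.15 at Traj26, 9.53 at Traj22, 11.5 at Traj20, 12.5 at Traj15, 14.6 at Traj11 and 12.1 at Traj7. In replicate 2 it was 4.31, 7.52, 9.80, 13.0, 13.7, 15.2, 18.0 and 16.1 counts at the same segments. Background was thus higher toward Trac in both replicates, with Spearman's rho against position of 0.929 and 0.976 over 8 regions that share each library. Fold showed no such order, with rho of -0.214 and -0.0714. Background at the Trac intron region was 26.0 and 34.1 counts, or 8.97 and 9.95 times the lowest background that was recovered within tolerance in each library (2.90 and 3.43 counts).

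**Figure D3:**
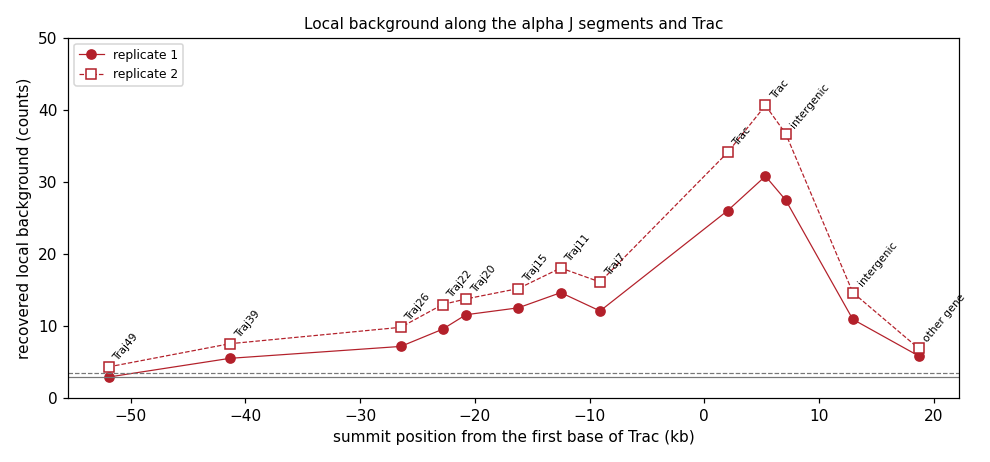
Recovered local background, in counts, at each shared region from Traj49 to 20 kb past Trac, against the summit's position in kb from the first base of Trac, in replicate 1 (circles) and replicate 2 (squares). Grey lines mark the lowest background recovered within tolerance over all shared regions, for replicate 1 (solid, 2.90) and replicate 2 (dashed, 3.43); the regions beside Trac lie highest in both replicates.

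Trac, the constant gene of the alpha chain, and the 20 kb 3′ of it held 5 shared regions, or 21.1 per 100 kb. The Trac intron region, at chr14:54222242-54223133, had folds of 6.14 and 5.73 and pileups of 165 and 200 counts. The region just 3′ of Trac, at chr14:54225133-54226135, had 3.33 and 3.39 with pileups of 105 and 140. The alpha enhancer site, at chr14:54227288-54228416 with its summit 3.42 kb 3′ of Trac, had 5.06 and 4.78 with pileups of 143 and 179. These 3 regions had folds below the medians of all shared regions (6.19 and 7.08) and high pileups. Within each replicate's whole list, the folds of the Trac intron region stood above 56.2% and 50.8% of regions. Their local background was 26.0 to 30.8 counts in replicate 1 and 34.1 to 40.6 in replicate 2.

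Farther on, a region 9.27 kb 3′ of Trac at chr14:54232943-54234043 had folds of 8.48 and 7.93. A region in the body of Dad1, a gene of protein glycosylation next to the alpha locus, had 8.49 and 11.2 at chr14:54238987-54239510. The hypersensitive sites between Trac and Dad1 are known as the locus control region of the alpha locus.

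At the beta locus the V part ran over 391 kb with 34 segments and held 13 shared regions, or 3.33 per 100 kb, in sequence that was 82.5% unique. Trbv1, the first segment, had folds of 12.7 and 14.2 and pileups of 147 and 196 counts at chr6:40890686-40891861, with the summit 147 bp 5′ of the segment. These pileups were the highest of the 16 V regions in both replicates. The pseudogene Trbv7 had folds of 13.4 and 14.9 at chr6:41078570-41079864, with the summit 1182 bp 5′ of it, the farthest of the V regions. Trbv12-1 had 9.95 and 13.0 at chr6:41112989-41114166, and its neighbour Trbv12-2 had 4.89 and 5.84. Folds at V segments of 1 locus thus ran from strong to weak, with no common level.

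The other beta V regions were closer to the level of the genome or under it. Trbv23 had 6.16 and 9.94, the pseudogene Trbv28 had 8.46 and 7.45, Trbv2 had 6.87 and 8.35, and Trbv19 had 6.17 and 6.83. Trbv5 had 6.30 and 4.77, Trbv21 had 3.85 and 5.65, and Trbv3 had 3.67 and 3.87. At Trbv21 the replicates' summits lay 609 bp apart. Of the 12 beta V segments with a region, 11 were overlapped by it.

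Besides these, a region 5′ of Trbv21 at chr6:41196612-41197335 had 3.85 and 3.39, the lowest of the intergenic regions in both replicates. A region 3.22 kb from Trbv4 in the noncoding gene 5830405F06Rik had 4.53 and 6.35. Past the last upstream V segment, 251 kb of mainly trypsinogen genes up to Trbd1 held 2 shared regions, or 0.796 per 100 kb. The first, at chr6:41296352-41296985, had 4.87 and 4.29. The second was that of Trbd1, and the 235 kb between them had no shared region. Replicate 2 alone had 2 regions in that gap, with folds of 3.61 and 3.39. Its sequence was 72.3% unique, and 3.17% of gaps between neighbouring shared regions were as long or longer.

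The stretch from Trbd1 to the end of Trbv31 was dense in shared regions, with 6 in 25.3 kb, or 23.8 per 100 kb. These 6 include the beta enhancer site and a Trbv31 region. They leave out the Trbd1 region, which is centred just 5′ of the stretch. Trbd1 had 7.46 and 8.29 at chr6:41532295-41533132, with the summit 407 bp 5′ of the segment, where its promoter is known to lie. Trbd2 had 4.03 and 4.10 at chr6:41541178-41542158, with the summit 217 bp 5′ of it. The Trbd1 and Trbd2 regions lay within 1 kb of Trbj1-1, Trbj1-2, Trbj2-1 and Trbj2-2, and the region 3′ of Trbj2-7, with 3.53 and 2.37, lay within 1 kb of 4 more J segments. None of the 14 beta J segments was itself overlapped.

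Of the beta constant genes, Trbc2 had 2 shared regions and Trbc1 had none within 1 kb. In the Trbc2 intron, chr6:41547050-41547696 had 2.71 and 2.51, and at its 3′ end chr6:41548319-41548931 had 4.69 and 5.61. Replicate 2 alone had a region 12 bp from Trbc1, with a fold of 2.66, and the nearest shared region was that of Trbd2 at 1.30 kb. The beta enhancer site, at chr6:41553440-41555246 with its summit 6.19 kb 3′ of Trbc2, had folds of 6.13 and 6.57. Its pileups of 171 and 213 counts were the highest of the 46 regions in both replicates.

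Trbv31 lies 3′ of the enhancer site in the opposite orientation. Its 5′ region at chr6:41557636-41558862, with the summit 41 bp from the segment, had 3.03 and 4.64, and a second at chr6:41559349-41559724 had 3.39 and 3.28. Pileups at the first were 82 and 146 counts, and at the second 82 in both replicates. In the flanks, a region 17.0 kb 5′ of Trbv1 had 6.02 and 8.00 and one 8.48 kb past Trbv31 had 4.36 and 5.87. In the first of these the replicates' summits lay 925 bp apart.

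**Figure D4:**
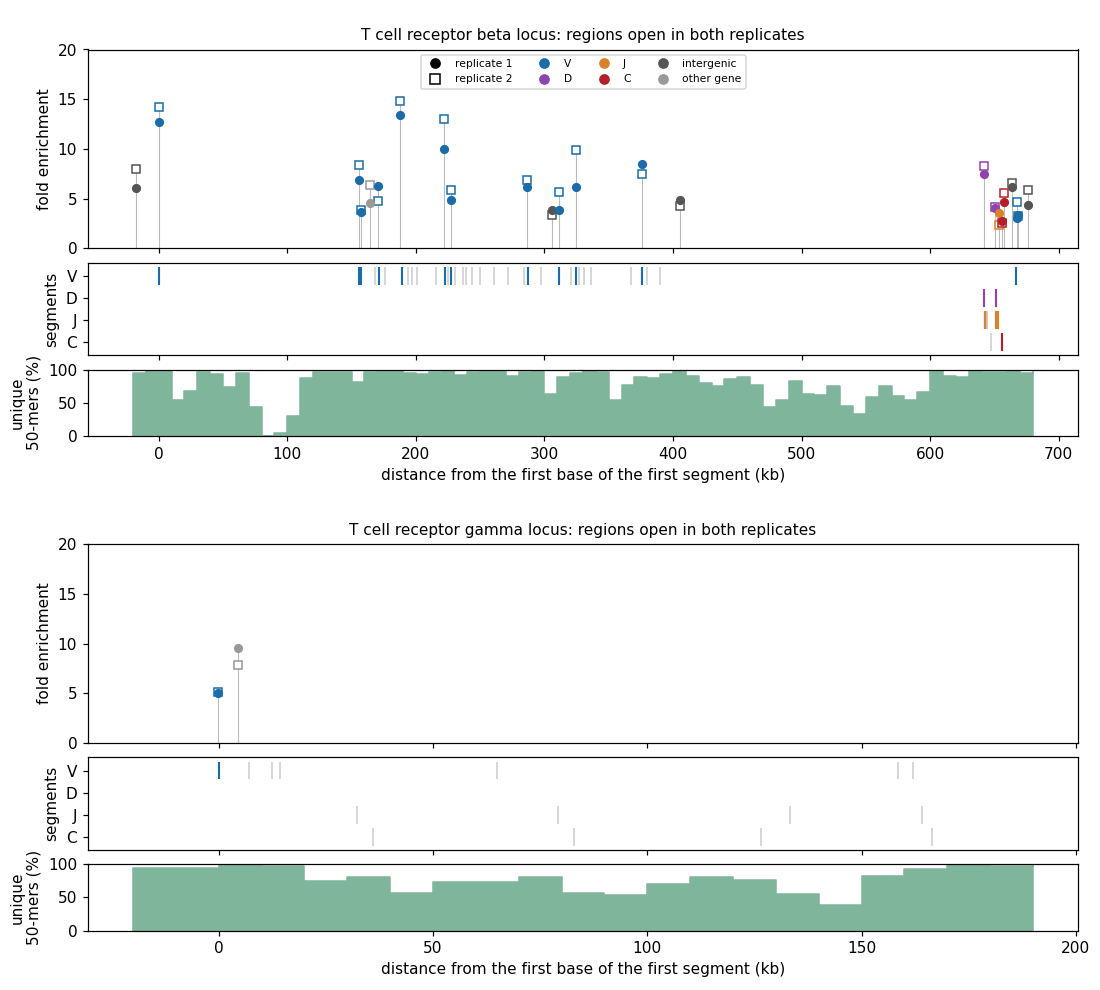
The beta locus (upper 3 panels) and gamma locus (lower 3 panels), drawn as fold enrichment of each shared region in replicate 1 (circles) and replicate 2 (squares), segments by class, coloured where they have a shared region, and percent of unique 50-base stretches, against the distance in kb from the first segment. Beta regions lie at V segments and from Trbd1 to Trbv31; the gamma locus has 2 regions at its left end.

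The gamma locus held 2 shared regions in 175 kb, or 1.14 per 100 kb, both near its first V segments. Tcrg-V7 had 4.99 and 5.10 at chr13:19177731-19178335, with the summit 172 bp 5′ of the segment. The other region, 2.21 kb from Tcrg-V4 in the antisense gene Gm31887, had 9.54 and 7.89 at chr13:19181966-19182762. The constant genes Tcrg-C1, Tcrg-C3, Tcrg-C2 and Tcrg-C4 were 31.3, 78.1, 87.7 and 42.5 kb from the nearest shared region. Of the gamma-delta T cell markers, Trdc, Tcrg-C1 and Tcrg-C4 had no region, whereas the promoters of Sox13, with 3.10 and 4.63, and Zbtb16, with 3.59 and 2.94, did.

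Seen by class over all loci, V regions had median folds of 6.16 and 7.14 (16 regions) and D regions 5.75 and 6.20 (2 regions). J regions had 3.53 and 3.28 (9 regions), C regions 4.01 and 4.50 (4 regions), and intergenic regions 6.08 and 6.90 (12 regions). Over all 46 the medians were 5.09 and 5.78, against 6.19 and 7.08 over all shared regions. Fold at V regions was thus near the genome's median, and at J and C regions it was lower, without a test since regions of 1 library are not replicates.

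The recovered pileup gave another order. Median pileups were 35 and 41 counts at V, 37 and 51 at J and 89 and 115 at C regions, against 37 and 52 over all shared regions. Median local background was 4.12 and 5.08 at V, 11.5 and 13.7 at J and 20.4 and 24.7 at C regions, against 5.03 and 6.26. With each region's values averaged over the replicates, the ratio of the V median to the J median was 1.83 for fold and 0.75 for pileup. Its direction thus depends on whether local background is divided out.

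**Figure D5:**
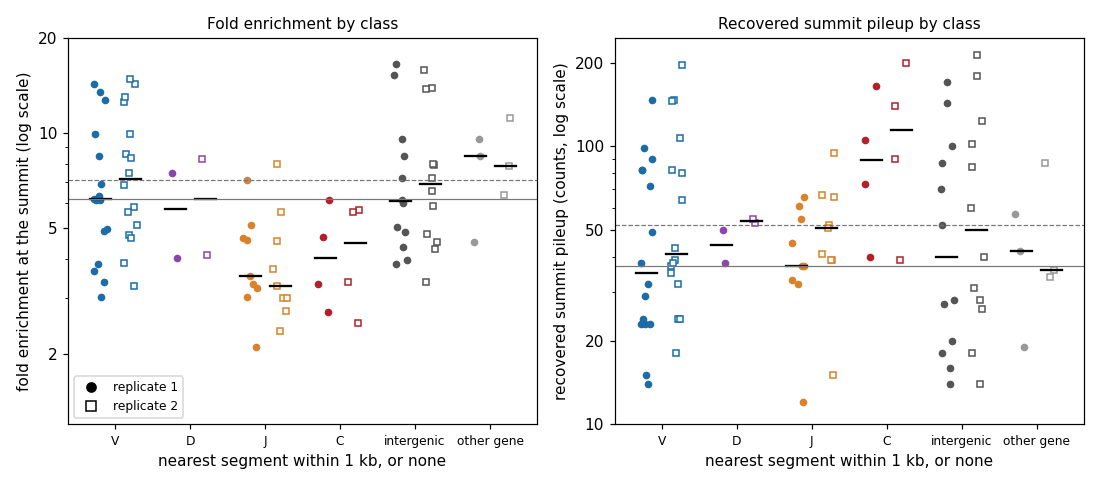
Fold enrichment (left) and recovered summit pileup in counts (right), both on log scales, of the 46 shared regions by the class of the nearest segment within 1 kb, in replicate 1 (circles) and replicate 2 (squares), with black bars at class medians and grey lines at the medians of all shared regions (solid, replicate 1; dashed, replicate 2). C regions lie low in fold and high in pileup.

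The replicates ranked the regions alike. Spearman's rho between their folds was 0.899 over the 46 regions, against 0.879 over all 44058. Fold was higher in replicate 2 in 29 of the 46. Of the 46 regions, 32 had a −log10 q of at least 10 in both replicates. A further 9 regions in replicate 1 and 14 in replicate 2 were called there alone, with folds of 1.96 to 5.20, and 0 of these 23 reached that q.

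The position of the summit was taken against the nearest segment within 1 kb. At V regions the summit lay 5′ of the segment in 13 of 16, by a median of 284 bp and by less than 500 bp in 9, which is where V promoters lie. It was inside the segment in 2 and 3′ in 1. At Trbv21, 1 of these 2, the replicates' own summits lay 609 bp apart, and neither was inside the segment. At J regions it was 5′ in 5 and 3′ in 4 of 9. Most J regions lay within 1 kb of more than 1 J segment. A summit between neighbouring J segments is 3′ of the first and 5′ of the next. Its side thus depends on which is nearer, and the V and J counts cannot be compared directly.

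Motifs were searched on both strands in the 300 bp windows at the mean summits. At Traj22, Trbv21 and the intergenic region 5′ of Trbv1 the replicates' summits lay 306, 609 and 925 bp apart. The windows there held neither replicate's summit. The RUNX motif TGTGGT was in 19 of 46 windows (41.3%), against 24.4% of all shared regions. These 19 were 8 of the 12 intergenic regions, 5 of 16 V, 2 of 2 D, 1 of 9 J and 2 of 4 C regions. The last was 1 of 3 in other genes. Of all 46 windows, the E-box CAGGTG was in 16 (34.8%), against 20.4%, and the E-box CAGCTG was in 8 (17.4%), against 16.9%. The recombination heptamer CACAGTG was in 7 (15.2%), against 9.01%, of which 2 were V, 2 J, 1 D and 1 C region. Shares below that of all shared regions were found for others. The GATA motif AGATAA was in 4 (8.70%), against 13.4%, and the CTCF core was in 1 (2.17%), the Dad1 region, against 7.58%.

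The CRE core TGACG was in 6 windows (13.0%), against 18.5%, and the ETS motifs CAGGAAG and ACTTCCG were in 7 (15.2%) and 1 (2.17%), against 19.8% and 5.07%. The composite AGGATGTGG, which can overlap TGTGGT, was in 4 (8.70%), against 1.48%. These 4 were the regions near Trav8d-2 and at Trbv23 and both enhancer sites. The composite was added after the data were seen, so its higher share is not an independent result. At the alpha enhancer site the window also held TGACGTCA, which is TGACG on both strands, and a RUNX motif that overlaps a CAGGTG. The beta enhancer site held the composite at 2 places, 1 of them extended to a RUNX motif. A match describes the letters only and names no bound factor.

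Trbd1's window held 2 RUNX motifs and 2 CRE cores, as printed above. The decamer known from V beta promoters was in 0 of the 46 windows, against 2.12%. In the 250 bp before to 50 bp after each V segment's start it was in 7 of 35 beta V segments (20%), 7 of 136 alpha-delta V segments (5.15%) and 0 of 7 gamma V segments, against 2.46% of 32851 RefSeq promoters. Among the beta V segments it was in 1 of 12 with a shared region, Trbv5, and in 6 of 23 without one.

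Genes that work with the segments were counted by promoter. Of 12 genes for the receptor's partners and for recombination, 8 had a shared region within 1 kb of their annotated start, near the 66% of protein-coding genes with one within 1 kb of their body. These were the CD3 chains Cd3d, Cd3e, Cd3g and Cd247 and the DNA repair genes Lig4, Prkdc, Dclre1c and Xrcc4. The 4 without one were Rag1 and Rag2, which cut the signals, Dntt, which adds bases at the joins, and Ptcra, the partner of the beta chain before an alpha chain is made. Of 16 genes that border the loci or lie within them, 4 had a promoter region. Dad1 had folds of 15.6 and 19.6, Ephb6 of 13.2 and 11.6, Stard3nl of 15.0 and 17.4, and Amph of 8.66 and 4.52. The other 12, which were Moxd2 and the olfactory receptor and trypsinogen family genes, had none.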

How the data were processed

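Per the file headers, each peak list was derived by the authors from a single library's alignment on mm10, with no pooling. The sources used here do not name the aligner, the peak caller, the transposase shift or any version. Region names carry the words masked, dedup, ASTARR, insert and 96hrs, which no source used here explains. If they mean that a cloned library was sequenced, fold would measure its inserts. Fold enrichment was deposited as a ratio to local background. It, the −log10 q-value and the −log10 p-value are deposited values of the authors' own. The deposited score was not used.

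The 51458 and 60784 regions of replicates 1 and 2 on 21 main chromosomes gave 44058 shared regions. Depth is not stated. The summit pileup and background were recovered from fold and p under a Poisson model with a pseudocount of 1, within 0.001 of −log10 p, for 44053 and 44023 shared regions and for all 46 at the segments. They cover counting error only, and whether they count reads, fragments or cuts is not stated. The lowest background within this tolerance was 2.90 and 3.43 counts.

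Uniqueness is the share of 50-base stretches that occur once in the genome, on either strand. The file headers list a signal track of unique reads, not analysed here, and do not say which reads the peaks used. Sequences are from RefSeq GRCm38.p6, and 0 regions ended past a chromosome. The "promoter" of a gene of the pathway or marker lists is 1 kb on each side of its 5′ end.

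With 1 group of 2 libraries no test was possible, and all comparisons are descriptions. Members and lists were chosen with earlier results of these data known. Named were all C and D segments, all V and J segments that a shared region overlapped, the segment nearest to each other region within 1 kb, all intergenic regions, bordering genes and the pathway genes. The decamer, the composite, the backgrounds of short, immunoglobulin and olfactory receptor genes, the subset with unique sequence and the pileup comparison were added after the data were seen. A marker gene of the lists is not reported here. The join was tested on simulated lists. Python 3.11.15, numpy 2.4.6, pandas 2.3.3, scipy 1.17.1, numba 0.67.0 and matplotlib 3.10.9 were used.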

Additional observations from a re-analysis of the deposited data

How the results depend on the processing

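No paired analysis was possible because there was 1 group. The 46 segments with a region became 20 when only overlap counted and 74 within 2.5 kb. Without replicate 1 or replicate 2 they were 49 to 50. The share of segments with a region, divided by that of all other genes, was 0.473. It was 0.408 with 50% reciprocal overlap, 0.383 with a −log10 q of at least 10, 0.221 for overlap only, 0.697 within 2.5 kb and 0.480 to 0.485 without either replicate. It turned round against other genes up to 1 kb long (2.14) and against olfactory receptor genes (7.49), so the side on which the segments stand depends on the genes they are set against.

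Shared regions per 100 kb over the 3 loci, divided by that of the genome, came to 0.915, to 0.883 with reciprocal overlap and to 0.954 with the q limit, and turned round to 1.03 with 20 kb flanks added. The V to J fold ratio of 1.83 was 1.97 with reciprocal overlap, 1.59 with the q limit, 1.80 for overlap only and 1.95 within 2.5 kb, and turned round to 0.75 for pileup. The heptamer was in 7 windows of 300 bp and 4 of 200 bp. The median unique share over all segments was 92.8% with 50-base, 89.25% with 36-base and 99.5% with 100-base stretches. Of the values for single classes and parts under the alternatives, 154 stayed within the limits set and 46 moved. Counts and class medians could only stay or move. Only densities of single parts could turn round, and 0 did. The 154 include the part densities under 20 kb flanks, which that setting leaves unchanged. The lists hold no depth, so a segment without a region may be open below what the authors' threshold detects.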

Other observations

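Several segments without a shared region had a region called in 1 replicate alone. In replicate 2 these were Trav10d at 75 bp with a fold of 4.29, Trbv13-2, which the region overlapped, with 3.47, the pseudogene Trbv24 at 5 bp with 2.71, Traj52 at 46 bp with 3.16 and Traj35 at 289 bp with 2.47. Traj51, Traj36 and Trbc1 also lay within 1 kb of a region of replicate 2 alone. In replicate 1 they were the pseudogene Trbv12-3 at 367 bp with a fold of 3.59 and Traj47 at 260 bp with 3.15, and Traj46 and Traj38 also lay within 1 kb of a region of that replicate. The other replicate listed no region at these places, and its values there are not in the lists. The highest fold of any region called in 1 replicate alone was 5.20, in replicate 2 at 12978 bp from Tcrg-C4, inside a gene past the end of the gamma locus.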
